A study of Mus musculus with 48 samples.

Results

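H3K27ac, a histone mark carried by active enhancers and promoters, was compared between 7 and 3 days after myocardial infarction (MI) in macrophages and monocytes of mouse hearts operated at postnatal day 10 (P10). The members were the 12 libraries whose titles name P10 MI, 6 of day 7 and 6 of day 3, out of 48 samples in the series, 42 of which had a file. The mice were C57BL/6 of both sexes, and MI was made at P10 by tying off the left anterior descending artery, at an age when the heart no longer regenerates. Tissue was collected 3 or 7 days after surgery and divided into the infarct (IZ), its border (BZ) and remote muscle (RZ), the same zone of several hearts was pooled, and cells positive for CD45 and F4/80 and negative for 7AAD were sorted. Every library is therefore a pool of hearts, and the 3 zones that share a day and a replicate number were taken as 1 pool, which left 2 pools per day. The labels do not say which hearts went into a number, so this is an assumption. Libraries came from CoBATCH, a form of single-cell ChIP-seq that uses barcoded transposase tethered to the H3K27ac antibody to cut and label DNA. The deposited reads name no cell, so each library was read as a bulk profile, in which fewer cells of a type and less H3K27ac per cell cannot be told apart. The 12 P10 sham libraries, operated without ligation and sorted in the same way at the same times, served as background. Day 7 after surgery is also an older heart than day 3, in MI and sham alike.

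In the infarcted heart, neutrophils enter first and are followed by Ly6c-high monocytes, which phagocytose dead tissue and release cytokines. Over the following days the progeny of these monocytes take on macrophage programmes of clearance, matrix repair and antigen presentation, beside resident macrophages that seeded the heart before birth. Enhancers gain H3K27ac where transcription factors such as PU.1, C/EBP, RUNX and AP-1 recruit acetyltransferases, and lose it when that recruitment ends, so the mark follows a cell's regulatory state.

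The day 3 libraries held 137158 to 753508 unique read pairs and the day 7 libraries 244982 to 1008148, of which 41.4% to 54.5% and 35.9% to 51.9% fell in 27160 H3K27ac regions called over all groups. The windows of the macrophage genes Spi1 (PU.1), Csf1r, Itgam, Adgre1 (F4/80) and Ptprc (CD45) carried signal in every P10 MI library. In CPM per kb, with all pairs of the library as total, Spi1 lay between 2.74 and 5.42, Csf1r between 1.78 and 5.10, Itgam between 1.65 and 3.70, Ptprc between 1.28 and 2.63 and Adgre1 between 0.857 and 1.55. Summed markers of other cells lay between 0.51 and 0.64 for B cells, 0.978 and 1.26 for dendritic cells and 1.20 and 2.80 for neutrophils. The dendritic cell and neutrophil levels overlapped the range of Adgre1. Pairs on chromosome Y made up 0.00245% to 0.0035% of the day 7 MI pool numbered 1 and 0.00774% to 0.0206% of that numbered 2. At day 3 they made up 0.0035% to 0.00522% of the MI pool numbered 2 and 0.0121% to 0.0365% of that numbered 3. The paper did not determine the sex of pups, so the mix per pool is unknown, and its part in the differences was not tested. The P10 libraries numbered 2 of both days, MI and sham, shared their 5 flow cells. Among P10 libraries number 3 existed for day 3 only and number 1 for day 7 only, each on other flow cells. Median fragment length was 197 to 203 bp in number 1, 254 to 257 bp in number 3 and 267 to 295 bp in number 2 of P10 MI. Within number 2 it was 288 to 295 bp at day 3 and 267 to 282 bp at day 7, so the days differed there too. Values from the number 2 pools alone compare the days on the same flow cells, but with 1 pool per day. They are therefore given beside the pooled ones for the windows and regions described at most length. Nothing in the labels says that the libraries of a day came from separate operations beyond their replicate number. The p-values measure the spread between libraries of the same age, surgery, day and zone, taken over all 42 libraries and not P10 MI alone.

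The activity of a gene was the number of pairs in H3K27ac regions in the gene itself, in 50 kb upstream of its start and in 30 kb past its end, in CPM, the pairs scaled to a common total per library over all windows tested. Differences are log2 of day 7 over day 3 as a mean over the 3 zones, ± SE, from limma with Benjamini-Hochberg adjustment. Of 10142 gene windows tested, 656 (6.47%) passed an adjusted p of 0.05, 315 (3.11%) higher at day 7 and 341 (3.36%) lower. Neighbouring windows share regions, and the called windows formed 289 separate stretches, 100 higher and 189 lower. The higher windows had a median log2 difference of 0.60 and the lower windows of -0.82, and 653 of the 656 had the same sign in all 3 zones, against 46.9% of all windows, which their choice on the mean over these zones largely fixes. In 163 of the called windows the 6 values of one day lay wholly above the 6 of the other, against 2.45% of all windows tested (1.47% with day 7 above and 0.976% with day 7 below). The called windows were chosen on these same values, which largely fixes a share above that of all windows. Chromosome 11 held 85 of the 315 higher windows (27%), 17 of the 341 lower ones (4.99%) and 10.4% of all tested.

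The number of calls depended on each pool, on single libraries, on the scaling and on the fit. Without the day 7 pools numbered 1 and 2, 8 and 369 windows were called, and without the day 3 pools numbered 2 and 3, 194 and 128. Leaving out day 3 RZ replicate 2 alone gave 93. The limma-trend fit gave 132, the fit with the replicate number as a block 314 and all pairs in the window 72, and scaling to all deposited pairs in place of TMM on pairs in regions left 1. That block gave each replicate number a common effect over all libraries fitted. Those numbered 2 of hearts operated at postnatal day 1 were on other flow cells than the P10 libraries numbered 2. The block is therefore not an adjustment for flow cell. The fits of the number 2 pools alone, and of the number 1 and 3 pools alone, had 1 library per day in each zone of P10 MI. Their p-values therefore rest on the spread between replicate libraries of the other groups. Of the windows with p under 0.01 in the number 2 pools, 60 were higher and 114 lower at day 7. In the number 1 and number 3 pools, which share no library with them, 54 (90%) of the former and 107 (93.9%) of the latter had the same sign, where 49% and 51% of all windows have those signs. Windows overlap, and in regions, which do not, the shares were 97 of 119 (81.5%) and 129 of 165 (78.2%), where 50.5% and 49.5% of all regions have those signs.

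**Figure D1:**
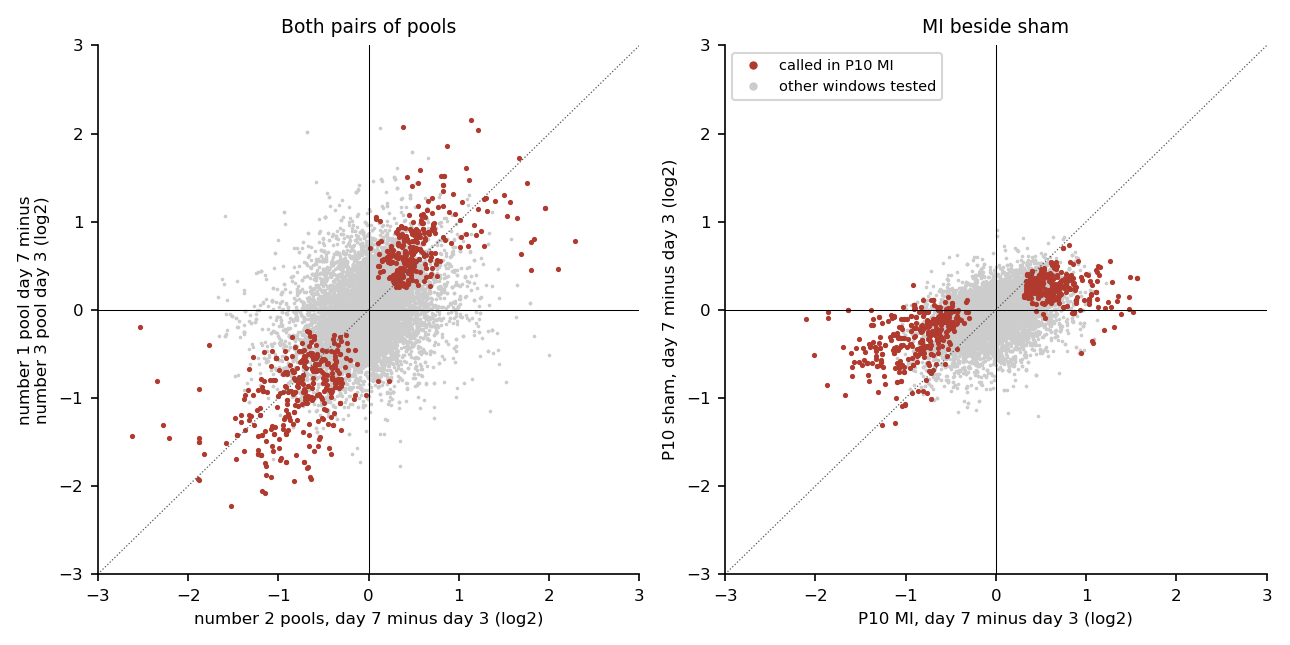
Log2 difference of day 7 over day 3 for each gene window tested, the 656 windows called in P10 MI in red. Left, the number 2 pools (x) against the number 1 pool less the number 3 pool (y), right, P10 MI (x) against P10 sham (y), with the line of equality dotted. The red windows were chosen on the mean over both pairs of pools in MI, which largely fixes that they share a sign on the left and lie farther from 0 on the MI axis on the right, where their medians are 0.60 and -0.82 in MI and 0.28 and -0.29 in sham.

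Between the sham days no window passed the threshold (0 of 10142 in limma, 860 at an unadjusted p under 0.05, smallest adjusted p = 0.0615). Of the windows called in MI, 298 of the 315 higher and 311 of the 341 lower had the same sign in sham, where 48.9% and 51.1% of all windows have those signs, with medians of 0.28 and -0.29. These windows were chosen for their values in MI, so larger values in MI than in sham are largely fixed by that choice. The test of that difference itself, MI less sham, called 0 windows in limma (462 at an unadjusted p under 0.05, smallest adjusted p = 0.791), so no single window was shown to change more after MI than after sham. Sham libraries have the same arrangement of numbers and flow cells as MI libraries.

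By zone, the BZ gave 394 calls (3.88%), 131 higher (1.29%) and 263 lower (2.59%), and the IZ and the RZ none. In the IZ 831 and in the RZ 1018 windows had an unadjusted p under 0.05 in limma, with smallest adjusted p of 0.0931 and 0.0562. Each zone had 2 libraries per day. The lower windows had median differences of -0.74 in the IZ, -1.06 in the BZ and -0.64 in the RZ, and the higher windows of 0.60, 0.67 and 0.50. The day change in the IZ less that in the RZ passed in 0 windows in limma (428 at an unadjusted p under 0.05, smallest adjusted p = 0.999). That in the BZ less that in the RZ was fitted, but its values are not given here. No difference of the BZ from the other zones is therefore shown. Without day 7 BZ replicate 1 the BZ calls fell to 29.

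Rin3, an exchange factor for the endocytic GTPase Rab5, was the lower window with the smallest p. It had 437, 772, 632, 577, 431 and 398 CPM at day 3 in IZ replicates 2 and 3, BZ 2 and 3 and RZ 2 and 3. At day 7 it had 280, 408, 264, 259, 253 and 206 CPM in IZ 1 and 2, BZ 1 and 2 and RZ 1 and 2. The fall was -0.91 ± 0.13 (adjusted p = 1e-05), -0.81 in the number 2 pools, and only day 7 IZ replicate 2 reached into the day 3 range. Sham means were 281 CPM at day 7 and 347 at day 3, so day 3 after MI, with a mean of 541 ± 146 (SD, n = 6), was the high group.

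Sgms2, a sphingomyelin synthase of the plasma membrane, had 119, 221, 233, 178, 91.2 and 84.1 CPM at day 3 and 43.1, 80.3, 27.1, 43.1, 27.2 and 28.7 at day 7, in the same order of libraries. The 2 days did not overlap. Its difference was -1.88 ± 0.30 (adjusted p = 0.000234), -1.52 in the number 2 pools, beside sham means of 52.1 at day 7 and 72.8 at day 3. It was the 1 window that also passed when libraries were scaled to all deposited pairs (adjusted p = 0.00435). Glrx, a glutaredoxin that reduces protein disulfides with glutathione, fell from 120 ± 35.1 to 42.2 ± 6.73 CPM (SD, n = 6) with no overlap (-1.52 ± 0.25, adjusted p = 0.000234). Gsr, the reductase that regenerates glutathione and named for its p in the BZ, fell from 156 to 64.5 CPM (-1.11 ± 0.23, adjusted p = 0.00118), with -2.15 in the BZ and -0.42 in the RZ, where the adjusted p was 0.762.

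Pilra, an inhibitory immunoglobulin-like receptor of myeloid cells, fell from 150 ± 27.4 to 68 ± 23.5 CPM with no overlap (-1.15 ± 0.21, adjusted p = 0.000397), and by -1.38 in the number 2 pools. In sham its means were 87.6 and 90.8 CPM at days 7 and 3. Myh9, the heavy chain of non-muscle myosin IIA, fell from 465 ± 112 to 302 ± 41.6 CPM (-0.62 ± 0.11, adjusted p = 0.000397), with sham means of 310 and 305. Nid1, a basement membrane glycoprotein, fell from 70.6 ± 40.5 to 19.5 ± 12.5 CPM (-2.02 ± 0.36, adjusted p = 0.000397), with sham means of 20.7 and 30. In the number 2 pools Glrx was at -1.14, Gsr at -0.91, Myh9 at -0.37 and Nid1 at -1.88. In the windows of Pilra, Myh9 and Nid1 the sham values of both days lay nearer to day 7 than to day 3 after MI. Ptk2b, a focal adhesion kinase of haematopoietic cells, fell by 0.75 on the log2 scale and Cmip by 0.54. Rin3, Sgms2, Glrx, Gsr, Pilra, Myh9, Nid1, Ptk2b and Cmip kept their calls when any 1 library was left out. Without the day 7 pool numbered 1, Sgms2, Glrx, Gsr, Myh9, Nid1 and Ptk2b lost theirs.

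The higher windows with the smallest p were smaller in size. Trim47, a tripartite motif E3 ubiquitin ligase, had 252, 184, 252, 257, 266 and 258 CPM at day 3 and 397, 311, 406, 378, 461 and 386 at day 7, with no overlap. The rise was 0.69 ± 0.11 (adjusted p = 0.000234), 0.48 in the number 2 pools, beside sham means of 365 at day 7 and 308 at day 3. Runx3, a transcription factor of the RUNX family, rose from 102 ± 16.6 to 181 ± 24.4 CPM with no overlap (0.79 ± 0.17, adjusted p = 0.00161), and by 0.83 in each pair of pools. Chrnb1, a subunit of the muscle acetylcholine receptor, rose from 111 ± 17.6 to 200 ± 27.1 CPM with no overlap (0.89 ± 0.18, adjusted p = 0.000705). Its sham means were 161 and 155. C1qtnf1, a secreted protein related to C1q, rose from 152 ± 51.4 to 251 ± 14.5 CPM (0.82 ± 0.15). In the number 2 pools Chrnb1 was at 0.72 and C1qtnf1 at 0.60, and with the replicate block Chrnb1 missed the threshold (adjusted p = 0.059), as did Mxd4 (0.0512).

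Adrb1, the beta-1 adrenergic receptor, had the largest rise of the 12 higher windows named by p. It had 39.5, 11.4, 15, 32, 29.5 and 16.8 CPM at day 3 and 64.7, 66.9, 65.6, 104, 65.1 and 91.2 at day 7. Every day 7 library lay above every day 3 library (1.48 ± 0.32, adjusted p = 0.00194, 1.67 in the number 2 pools). Sham stood at 70.1 CPM at day 7 and 54.4 at day 3, so for Adrb1 day 3 after MI, at a mean of 24 ± 11.2 (SD, n = 6), was the low group. Slco2b1, an organic anion transporter, rose by 1.11 ± 0.25 (adjusted p = 0.0032), with 2.03 in the BZ and 0.14 in the RZ. Without day 3 RZ replicate 2, Slco2b1 (adjusted p = 0.0642) and Mxd4, a MAX partner that represses MYC targets (0.0544), missed the threshold, and Trim47, Runx3, Chrnb1, C1qtnf1 and Adrb1 kept their calls without any 1 library, but the first 4 of these lost them without the day 7 pool numbered 1 and Adrb1 without the day 3 pool numbered 3.

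**Figure D2:**
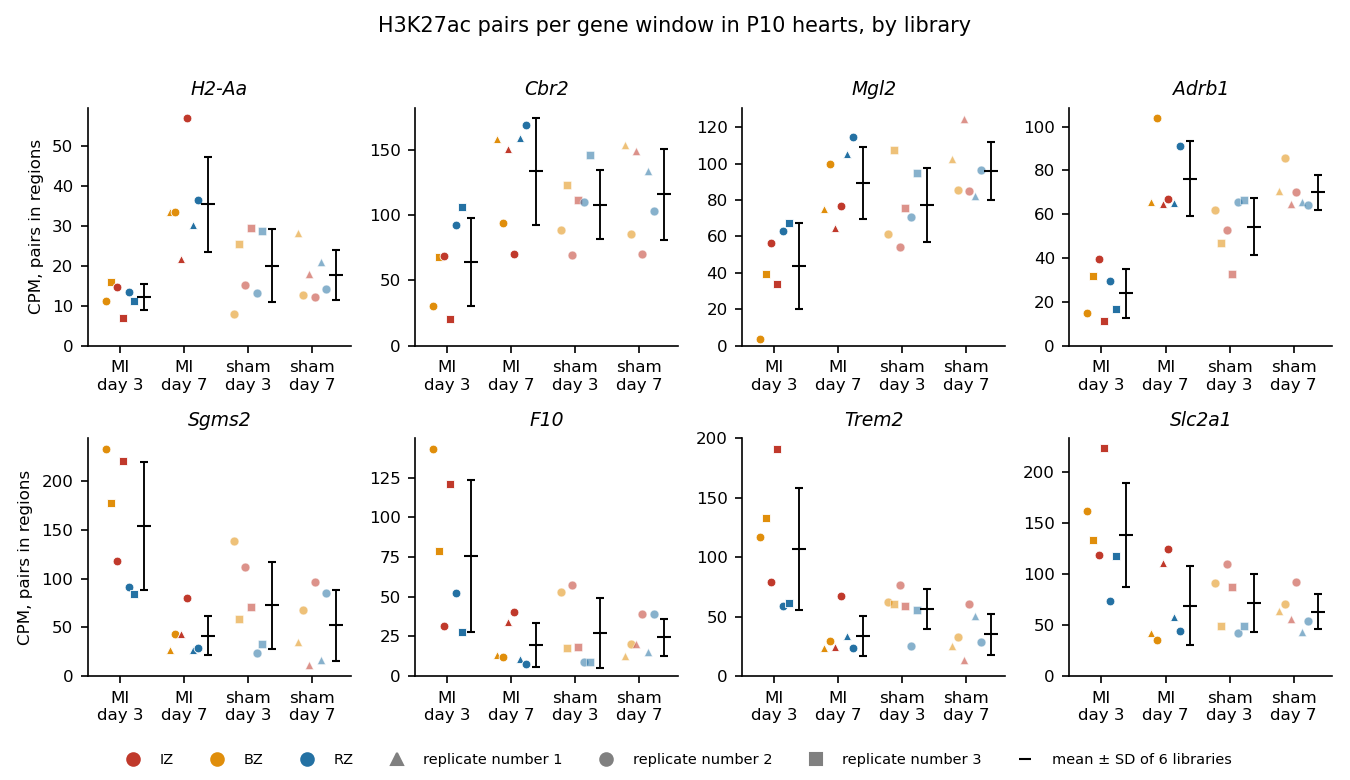
CPM of read pairs in H3K27ac regions of 8 gene windows in each P10 library, MI day 3, MI day 7, sham day 3 and sham day 7, with colours for zones, marker shapes for replicate numbers and bars for the mean ± SD of 6. H2-Aa, Cbr2, Mgl2 and Adrb1 are higher and Sgms2, F10, Trem2 and Slc2a1 lower at day 7 after MI, and the day 3 MI libraries of Adrb1 (11.4 to 39.5) and Sgms2 (84.1 to 233) lie apart from all 6 of day 7.

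Regions, which unlike windows do not overlap, placed these differences. Their CPM are scaled to the total over all regions tested, so a region can have more CPM than a window that holds it. Of 12490 regions tested, 222 (1.78%) were called, 82 (0.657%) higher and 140 (1.12%) lower, with medians of 1.42 and -1.65. In sham 0 regions were called in limma, 752 having an unadjusted p under 0.05. MI less sham gave 0 as well, 627 having an unadjusted p under 0.05. Regions within 1000 bp of a transcription start gave 44 higher (0.656%) and 43 lower (0.641%) calls among 6707. Distal regions gave 38 higher (0.657%) and 97 lower (1.68%) among 5783. Of the 140 lower regions 45 were intergenic, 26 intronic, 26 in exons and 43 at promoters.

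The sequences printed here are the 200 bases with the most pairs in the 8 of the 12 named regions that are up to 20000 bp long, plus strand of GRCm38, from the RefSeq GRCm38.p6 genome, in lower case with letters of AP-1, C/EBP, PU.1 or RUNX motifs in capitals. They are shown because they are the most heavily marked DNA of regions with large called differences. In the Sec14l1 intron 1 pair of the 6 day 3 libraries and 15 of the 6 day 7 libraries had their midpoint there, near Adrb1 4 and 11 and at Cbr2 8 and 10, little apart although the whole region was called. At Ikbke the pairs went from 16 at day 3 to 4 at day 7, in Rin3 from 10 to 2, in Ptpre from 7 to 1, at Mcemp1 from 8 to 2 and in Sgms2 from 10 to 1.
Sec14l1, chr11:117139301-117139500: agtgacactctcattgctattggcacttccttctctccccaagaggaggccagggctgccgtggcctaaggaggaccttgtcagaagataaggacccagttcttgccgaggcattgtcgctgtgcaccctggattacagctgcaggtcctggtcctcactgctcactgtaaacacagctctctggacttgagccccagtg
Cbr2, chr11:120726951-120727150: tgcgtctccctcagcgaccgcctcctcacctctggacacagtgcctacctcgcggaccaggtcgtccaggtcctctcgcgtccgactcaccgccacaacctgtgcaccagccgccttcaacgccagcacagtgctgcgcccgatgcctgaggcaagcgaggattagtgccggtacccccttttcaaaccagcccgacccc
Adrb1, chr19:56726651-56726850: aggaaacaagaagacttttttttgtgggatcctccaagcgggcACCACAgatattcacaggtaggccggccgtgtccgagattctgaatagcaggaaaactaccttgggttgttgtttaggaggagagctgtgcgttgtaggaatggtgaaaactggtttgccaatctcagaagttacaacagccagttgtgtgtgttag
Ikbke, chr1:131279251-131279450: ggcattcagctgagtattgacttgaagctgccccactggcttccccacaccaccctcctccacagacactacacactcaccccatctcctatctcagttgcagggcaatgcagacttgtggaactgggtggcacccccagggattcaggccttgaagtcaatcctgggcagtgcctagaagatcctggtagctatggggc
Rin3, chr12:102320001-102320200: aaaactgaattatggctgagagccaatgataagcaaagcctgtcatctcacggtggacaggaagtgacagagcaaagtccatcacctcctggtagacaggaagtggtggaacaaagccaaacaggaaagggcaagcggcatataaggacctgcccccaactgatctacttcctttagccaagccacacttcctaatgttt
Ptpre, chr7:135598351-135598550: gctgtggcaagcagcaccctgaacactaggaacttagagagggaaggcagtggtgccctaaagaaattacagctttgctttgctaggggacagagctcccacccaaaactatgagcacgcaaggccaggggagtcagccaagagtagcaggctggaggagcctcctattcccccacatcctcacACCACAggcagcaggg
Mcemp1, chr8:3658851-3659050: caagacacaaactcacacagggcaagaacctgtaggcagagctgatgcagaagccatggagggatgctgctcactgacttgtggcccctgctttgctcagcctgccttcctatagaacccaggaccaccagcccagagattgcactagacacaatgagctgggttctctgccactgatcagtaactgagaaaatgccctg
Sgms2, chr3:131476751-131476950: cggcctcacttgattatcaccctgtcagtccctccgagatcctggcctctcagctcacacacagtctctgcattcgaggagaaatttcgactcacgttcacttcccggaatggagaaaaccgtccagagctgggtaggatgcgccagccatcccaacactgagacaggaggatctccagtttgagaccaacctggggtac
The RUNX letters in the Adrb1 and Ptpre stretches were the only capitals in these 8 sequences.

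The whole Sec14l1 region, chr11:117133001-117140000 in an intron of this phospholipid-binding protein gene, had 39.6 ± 35.1 CPM at day 3 (lowest 6.63, median 30.9, highest 101) and 138 ± 14.7 at day 7 (117, 140 and 154). The days did not overlap (1.89 ± 0.37, adjusted p = 0.00156, 1.66 in the number 2 pools), and sham had 111 CPM at day 7 and 95.2 at day 3. The region at Adrb1, chr19:56720001-56727500, went from 41.9 ± 23.1 to 141 ± 16.9 CPM (1.74 ± 0.37, adjusted p = 0.00415), with 146 and 93.1 in sham. Without day 3 IZ replicate 3 (adjusted p = 0.0748) or day 3 RZ replicate 2 (0.0533) the Adrb1 region missed the threshold. The region over the promoters of Cbr2 and Dcxr, chr11:120725001-120734500, went from 90.8 ± 56.7 to 229 ± 51.6 CPM (1.49 ± 0.30, adjusted p = 0.00195), with sham at 202 and 177. In the number 2 pools the regions at Adrb1 and Cbr2 were at 1.48 and 1.22, and with the replicate block the Adrb1 region missed the threshold (adjusted p = 0.0841). The other 3 higher regions named by p were broader and smaller in difference. That over Nfic, Smim24 and neighbours (chr10:81375501-81435500) went from 1163 ± 125 to 1776 ± 248 CPM (0.58 ± 0.11, adjusted p = 0.00151), that over Trim47, Unc13d and Wbp2 (chr11:116071501-116114500) from 526 ± 57.3 to 840 ± 134 (0.72 ± 0.14, adjusted p = 0.00151) and that at Engase (chr11:118452501-118480500) from 273 ± 116 to 466 ± 75.9 (0.93 ± 0.19, adjusted p = 0.00289). The first and second missed the threshold with the replicate block (0.0672 and 0.0826), and the Engase region without day 3 IZ replicate 3 or day 3 RZ replicate 2 (adjusted p up to 0.0707). None of the 6 higher regions kept its call without the day 7 pool numbered 1 or without the day 3 pool numbered 3.

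The fall with the smallest p was at the promoter of Ikbke, the kinase IKK-epsilon of the interferon and NF-kB pathways, chr1:131274501-131281000. It had 124 ± 49.2 CPM at day 3 (46.1, 137 and 178) and 27.2 ± 17.6 at day 7 (0, 26.3 and 54.2), a difference of -2.32 ± 0.40 (adjusted p = 0.000863), with sham at 35.5 and 52.8. In the Rin3 intron, chr12:102318501-102322000, the days did not overlap, with 28.9 to 83.6 CPM at day 3 and 0 to 28.4 at day 7 (-2.59 ± 0.47, adjusted p = 0.00112). The margin was narrow, with 28.943 CPM in day 3 IZ replicate 2 and 28.449 in day 7 BZ replicate 2. Such values rest on few pairs per library. A second stretch of Rin3, chr12:102345501-102383500, fell from 674 to 329 CPM. The Sgms2 intron, chr3:131476001-131484500, fell from 133 ± 39.2 to 32.9 ± 9.1 CPM (-1.94 ± 0.38, adjusted p = 0.00151), again without overlap. In the number 2 pools the region at Ikbke was at -3.02 (adjusted p = 0.0255), that in the Rin3 intron at -2.70 and that in Sgms2 at -1.73, and of the 12 named regions only that at Ikbke passed there. Of the 6 lower regions the other 5 lost their call without the day 7 pool numbered 1, whereas Ikbke kept it without any 1 of the 4 pools. Falls were also called at Ptpre, a receptor tyrosine phosphatase (259 to 94.3 CPM), and over Mcemp1 and Retn, the latter encoding resistin (255 to 79.7 CPM).

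AP-1, the dimer of FOS and JUN proteins that binds TGANTCA, is induced by stress and cytokines and marks many inflammatory enhancers. The letters TGANTCA, on either strand, lay in the central 500 bp of 34 of the 140 lower regions (24.3%), of 12.5% of all 12490 regions and of 6 of the 82 higher regions (7.32%). Among distal regions alone the shares were 27.8% of the lower, 16.1% of all and 7.89% of the higher, and among promoter regions 16.3%, 9.33% and 6.82%. RUNX letters (TGTGGT) lay in 40%, 29.5% and 26.8%, NR4A letters in 6.43%, 2.42% and 2.44% and C/EBP letters in 22.9%, 17% and 12.2%. PU.1 letters, at 6.43%, 5.32% and 3.66%, differed by less in percentage points. In the larger sets with an unadjusted p under 0.01, AP-1 letters lay in 20.2% of the lower and 10.5% of the higher regions and PU.1 letters in 7.51% and 4.97%. RUNX letters lay in 31.9% and 32.2%, so their difference was not seen there. KLF/SP letters (GGGCGG), which are rich in G and C, had 12.9%, 31.3% and 23.2%, but 11.3%, 13.6% and 7.89% among distal regions alone. The lower regions had a median GC content of 46.6% against 50% over all and 50.9% in the higher ones, and its part in these shares was not tested. These shares are a description of letters, with no test, out of 18 motifs searched. Of the lower regions that hold AP-1 letters, 6 with small p are shown with 20 bases on either side, the AP-1 letters in capitals, as examples of the sites counted. The letters were sought at the middle of a region, which need not be its most marked part. From 0 to 2 pairs of a day had their midpoint in each stretch, too few to compare the days there. At Ptpre, 6430531B16Rik and Smox 0 pairs were of day 3 and 1 of day 7.
Ptpre, chr7:135597407-135597453: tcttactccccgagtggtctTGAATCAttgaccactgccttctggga
Mcemp1, chr8:3665068-3665114: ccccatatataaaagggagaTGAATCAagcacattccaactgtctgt
6430531B16Rik, chr7:139982433-139982479: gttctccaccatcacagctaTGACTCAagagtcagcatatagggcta
Prkar2b, chr12:32017710-32017756: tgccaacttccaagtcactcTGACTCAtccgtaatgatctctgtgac
Smox, chr2:131427155-131427201: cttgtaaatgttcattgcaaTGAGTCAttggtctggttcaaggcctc
Baz2b, chr2:60076923-60076969: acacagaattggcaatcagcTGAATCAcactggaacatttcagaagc
The region nearest to 6430531B16Rik also covers Adam8, a metalloprotease of leukocytes, and fell from 616 to 335 CPM. The one in Prkar2b, a regulatory subunit of protein kinase A, fell by 2.25 on the log2 scale without overlap of the days.

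**Figure D3:**
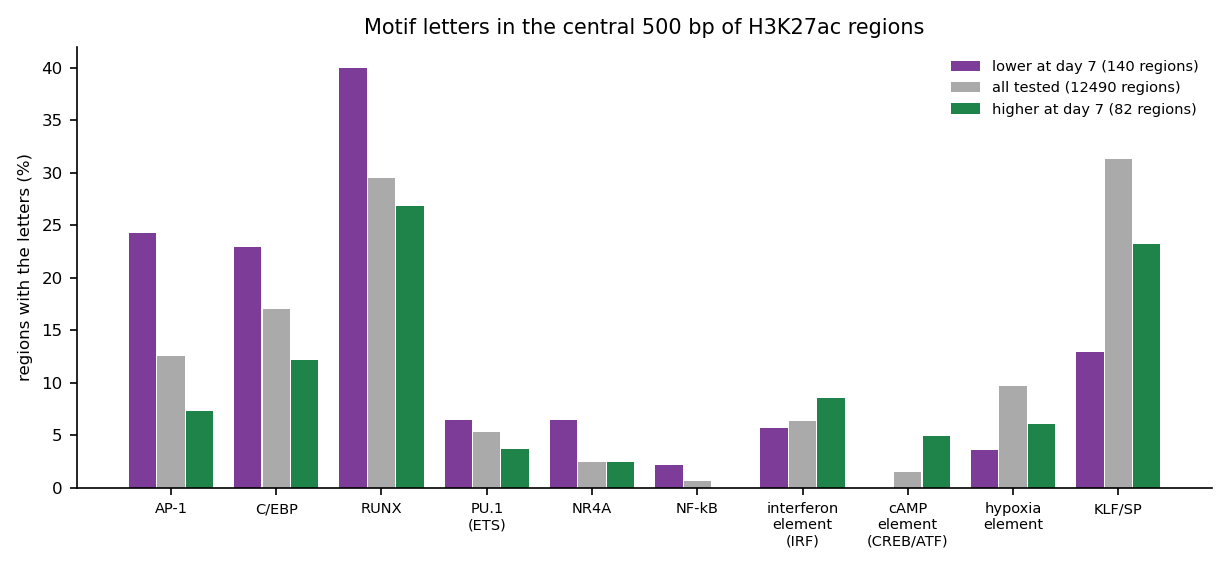
Share of regions whose central 500 bp hold the letters of a motif, for the 140 regions lower at day 7, all 12490 tested and the 82 higher at day 7. AP-1 letters stand at 24.3%, 12.5% and 7.32%, and KLF/SP letters at 12.9%, 31.3% and 23.2%.

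The lists of AP-1 genes themselves, cytokines, NF-kB signalling and interferon response gave 0 or 1 call each, which in lists of this size is near the 6.47% of all windows called. None of 13 tested AP-1 and immediate early genes passed (median 0.09), with Fos at 0.05, Jun at -0.16, Junb at -0.06 and Atf3 at 0.09. None of 16 tested cytokine and chemokine genes passed (median -0.03), among them Il1b at -0.32, Tnf at 0.15, Cxcl2 at -0.46 and Ccl2 at -0.46. Of 15 genes of NF-kB signalling, Nfkbia, the inhibitor IkB-alpha, fell (-0.53 ± 0.17, adjusted p = 0.0494), from 153 to 99.7 CPM. It lost its call without 10 of the 12 libraries, with an adjusted p of up to 0.365 (without day 3 RZ replicate 2), which leaves this call at the edge. None of 15 tested interferon response genes passed (median -0.21). All lists here were made with earlier results of these data known, and several hold genes the study chose on these samples, so their directions are not independent evidence.

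Genes of the Ly6c-high monocyte fell together. Of 11 listed, 6 had enough pairs to be tested, and 5 of the 6 fell, against 3.36% of all windows, with a median of -1.11 over the 6 where all windows had 0.0033. The sham median was -0.35 and that of the number 2 pools -0.90. On all pairs 10 were tested, all below 0 with a median of -0.69, and 1 fell. F10, coagulation factor X, had 31.2, 121, 143, 78.9, 52.3 and 28 CPM at day 3 and 33.9, 40.2, 13.5, 11.8, 10.7 and 7.82 at day 7 (-1.86 ± 0.37, adjusted p = 0.00075). Its highest day 3 values were in the IZ of replicate 3 and in the BZ. Hp, haptoglobin, fell from 73.1 to 28.6 CPM (-1.43 ± 0.31, adjusted p = 0.00193), and Cd44, the hyaluronan receptor, from 254 to 160 CPM (-0.73 ± 0.16, adjusted p = 0.00194). Plac8 fell by 0.81 on the log2 scale. F10 was at -1.89, Hp at -1.46 and Cd44 at -0.58 in the number 2 pools. Ccr2, the receptor that draws these monocytes into tissue, stood at -0.34 (adjusted p = 0.186).

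Without day 3 RZ replicate 2, F10 (adjusted p = 0.0564), Hp (0.136) and Cd44 (0.18) missed the threshold with their direction kept, and with the replicate block Cd44 missed it too (0.103). Neutrophils carry Hp as well. The summed level of 10 neutrophil markers lay between 1.55 and 2.80 CPM per kb at day 3 and between 1.20 and 1.86 at day 7, none of them at 0 in all P10 libraries. Of its 6 tested members, which include Mpo, Elane and Ltf, none passed. On all pairs 9 were tested and 0 passed in limma, 7 being below 0, with a median of -0.36, -0.85 in the IZ, -0.49 in the BZ and 0.03 in sham, and 2 had days that did not overlap, as in 1.86% of all windows on all pairs. The 10 markers include S100a9 itself, so their summed level is not separate from the values of that gene. The part of neutrophils in these falls and in those of S100a8 and S100a9 was not tested.

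S100a8 and S100a9, the calprotectin genes that mark inflammatory monocytes and neutrophils, had too few pairs in regions and were read on all pairs in their windows. S100a8 had 48.9, 187, 81.6, 120, 37.4 and 7.28 CPM at day 3 and 23.2, 24.1, 15.8, 15.9, 10.5 and 8.24 at day 7. The difference was -2.11 ± 0.53 and missed the threshold (adjusted p = 0.0544), but passed in the BZ (-2.72, adjusted p = 0.0206). S100a9 had -2.17 ± 0.57 (adjusted p = 0.064) and passed in the BZ (-3.12, adjusted p = 0.0171). The genes are neighbours whose windows overlap, the 12 windows of their list forming 11 separate stretches. Their values share pairs and are not independent of each other. In sham S100a8 had 27 CPM at day 3 and 15.2 at day 7. Of the 12 genes of the S100a9 monocyte list on all pairs, 0 passed in limma and 11 were below 0, with a median of -0.77 beside a sham median of -0.71. In regions 6 were tested and 1 passed, where 3.36% of all windows fell, Csf3r, the receptor of G-CSF (-0.61 ± 0.19, adjusted p = 0.0421), which lost its call without 9 of the 12 libraries (adjusted p up to 0.349, without day 7 RZ replicate 1) and with the replicate block (0.225). In all, 72 of 16157 windows (0.446%) were called on all pairs, 10 higher (0.0619%) and 62 lower (0.384%), and 135 (0.836%) in the BZ, 21 higher and 114 (0.706%) lower.

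**Figure D4:**
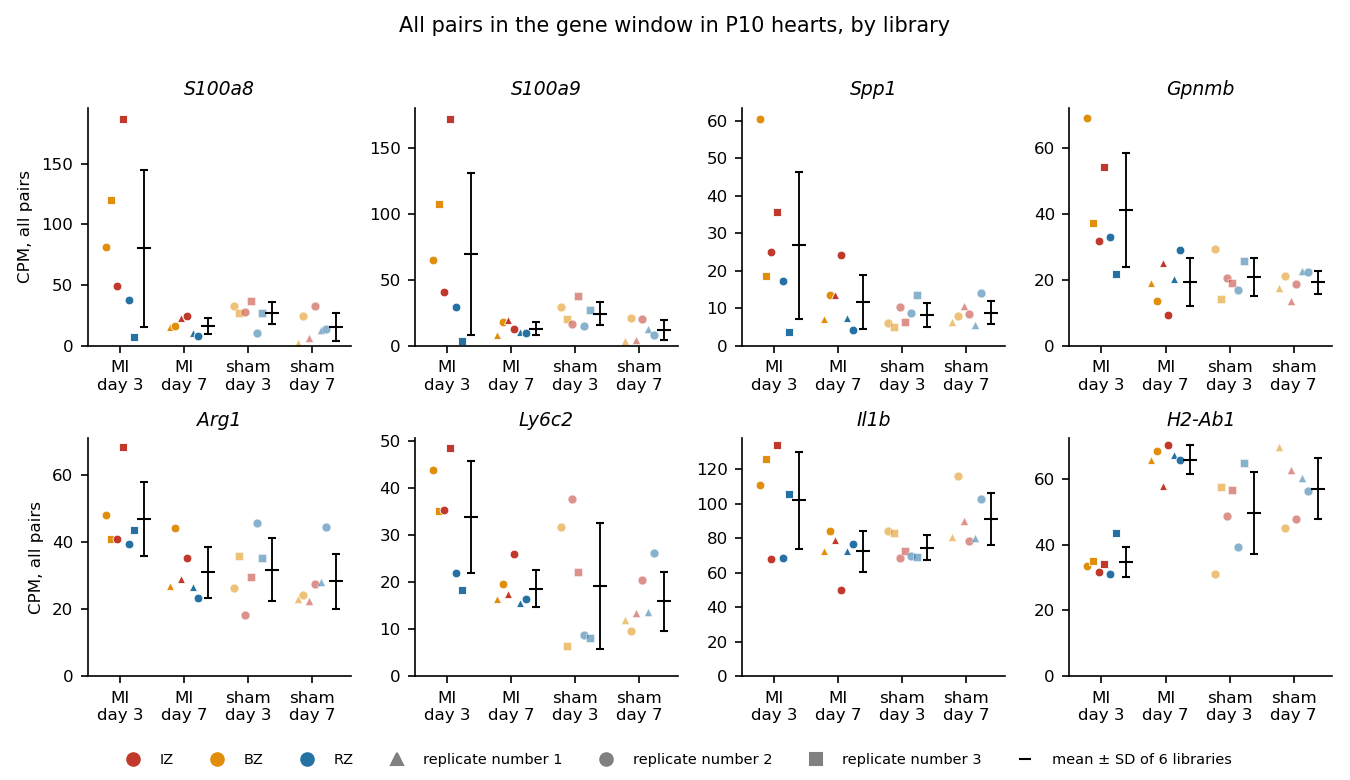
CPM of all read pairs in the windows of 8 genes in each P10 library, laid out by surgery and day, with colours for zones, marker shapes for replicate numbers and bars for the mean ± SD of 6. S100a8 has means of 80.3 at day 3 and 16.3 at day 7, with the day 3 RZ replicate 3 library at 7.28, and H2-Ab1 is the gene whose MI days do not overlap (31.1 to 43.7 and 58 to 70.5).

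In the Arg1 macrophage list 2 of 7 tested members fell, against 3.36% of all windows, the windows of Trem2, a lipid receptor of phagocytes that clear debris, and Cd9. The window of Trem2 had 79, 191, 117, 133, 59 and 61.6 CPM at day 3 and 24.6, 66.9, 23.9, 29.4, 33.6 and 23.5 at day 7 (-1.59 ± 0.29, adjusted p = 0.000397, -1.15 in the number 2 pools). Only day 7 IZ replicate 2 reached the day 3 range, and the IZ of replicate 3 at day 3 was highest. Sham had 35.2 and 56.5 CPM, the difference was also called on all pairs (-1.35, adjusted p = 0.0409), and it held without any 1 library but not without the day 7 pool numbered 1. Treml4, a neighbour in the Trem cluster on chromosome 17 listed with Ly6c-low monocytes, fell from 101 ± 50.9 to 38.6 ± 20.5 CPM (-1.52 ± 0.28, adjusted p = 0.000468). Both windows hold the region at Treml2 (chr17:48300001-48303000), which fell from 62.1 to 11.48 CPM. The window of Trem2 also holds that at B430306N03Rik (chr17:48316001-48326500), which fell from 189 to 49.7 CPM. The region at the start of Trem2 itself (chr17:48345501-48350000) had 53.0 and 34.6 CPM and did not pass (-0.53, adjusted p = 0.592), so the called regions in the Trem2 window are those at its neighbours. The 7 other Ly6c-low monocyte genes tested, Nr4a1 at 0.21 and Spn at 0.14 among them, did not pass.

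Cd9, a tetraspanin that lipid-laden macrophages express, fell from 193 ± 69.6 to 115 ± 20.6 CPM (-0.73 ± 0.18, adjusted p = 0.0085), but missed the threshold without day 3 IZ replicate 3 (adjusted p = 0.0763), day 3 RZ replicate 2 (0.185) or day 7 RZ replicate 1 (0.14). Arg1, the arginase of wound macrophages, stood at -0.32 in regions (adjusted p = 0.664) and at 46.9 ± 11 CPM at day 3 and 30.9 ± 7.59 at day 7 on all pairs (-0.55, adjusted p = 0.386). Gpnmb, a lysosomal glycoprotein, had 41.1 ± 17.3 and 19.3 ± 7.21 CPM on all pairs (-1.06 ± 0.36, adjusted p = 0.186), and Spp1, osteopontin, 26.8 and 11.6 (-0.91 ± 0.46, adjusted p = 0.459). Igf1 was at -0.02 on all pairs (adjusted p = 0.994). The list median was -0.32 in MI and -0.27 in sham.

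Glucose metabolism and the hypoxia response gave 3 falls among 18 tested genes, against 3.36% of all windows, and no rise, with a median of -0.36, -0.08 in sham, -0.05 in the number 2 pools and -0.50 in the number 1 and 3 pools. On all pairs 1 of 22 fell, with a median of -0.27. Slc2a1, the glucose transporter GLUT1, had 119, 223, 162, 133, 73.8 and 118 CPM at day 3 and 111, 124, 41.6, 35.3, 58 and 44.3 at day 7 (-0.94 ± 0.20, adjusted p = 0.00194). The IZ libraries of day 7 remained in the day 3 range, and the fall was -0.94 in the number 2 pools. Pfkp, a phosphofructokinase of glycolysis, fell from 54.6 ± 10.5 to 26.3 ± 8.99 CPM with no overlap (-1.05 ± 0.29, adjusted p = 0.0201). Ero1l, an oxidase of the endoplasmic reticulum induced by hypoxia, fell from 56.8 to 31.7 CPM (-1.05 ± 0.30, adjusted p = 0.0231). Slc2a1 kept its call without any 1 library, Pfkp lost it without 5 of the 12 (largest adjusted p = 0.168, without day 7 RZ replicate 1) and Ero1l without 4 (0.272, without day 3 RZ replicate 2). With the replicate block Pfkp (adjusted p = 0.0602) and Ero1l (0.153) missed the threshold, which left 1 of the 3 falls, and in the number 2 pools they were at -0.93 and -0.83. Hif1a itself stood at -0.79 (adjusted p = 0.108) and Ldha at -0.38.

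MHC class II molecules present antigen to CD4 T cells, H2-Aa, H2-Ab1 and H2-Eb1 encode their chains, and H2-DM loads the peptide. Of 8 genes listed 6 rose, in 2 separate stretches, against 3.11% of all windows, whereas on all pairs 1 of the 8 passed (0.0619% of all windows rose there). The median was 0.53 in MI, 0.17 in sham and 0.49 in the number 2 pools. H2-Aa had 14.6, 6.83, 11.3, 16, 13.4 and 11.2 CPM at day 3 and 21.6, 56.9, 33.3, 33.3, 30.1 and 36.5 at day 7, with no overlap (1.35 ± 0.38, adjusted p = 0.0226). Sham means were 17.6 at day 7 and 20 at day 3. H2-Eb1 rose by 1.29 ± 0.40 (adjusted p = 0.0387) and H2-Ab1 by 1.03 ± 0.32 (adjusted p = 0.0414). H2-Aa was at 1.57 and H2-Ab1 at 1.16 in the number 2 pools. On all pairs H2-Ab1 went from 34.9 ± 4.56 to 66 ± 4.32 CPM (0.98 ± 0.24, adjusted p = 0.0478), whereas H2-Aa (adjusted p = 0.0924) and the H2-DM genes (0.242 to 0.328) missed the threshold there. For H2-Ab1 all 6 day 7 values lay above those of day 3, as in 0.774% of all windows on all pairs, where 1.09% had day 7 wholly below.

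H2-DMa, H2-DMb1 and H2-DMb2, whose windows share their regions, rose by 0.39, 0.42 and 0.37. Most of their pairs lay in the region nearest to Brd2 (chr17:34111501-34147000), with 718 CPM at day 7 and 580 at day 3 (adjusted p = 0.129), and no single region of these windows passed. They lost their calls without 6, 3 and 8 of the 12 libraries, with adjusted p of up to 0.326, 0.323 and 0.405. Ciita, the coactivator that switches class II genes on, stood at 0.65 (adjusted p = 0.14), and Cd74, the invariant chain, at 0.15 (adjusted p = 0.69). Within H2-Ab1 a region over an exon (chr17:34261501-34263500) rose from 6.08 ± 4.9 to 30.9 ± 6 CPM (1.98 ± 0.55, adjusted p = 0.0353), where sham had 10.9 at day 7 and 14.9 at day 3. H2-Aa missed the threshold without day 3 IZ replicate 3, day 3 RZ replicate 2, day 7 IZ replicate 2, day 7 BZ replicate 1 or day 7 RZ replicate 1 (adjusted p up to 0.122), and H2-Ab1 without 8 of the 12 libraries (up to 0.268, without day 3 RZ replicate 2). Dendritic cells and B cells also carry class II. Their summed marker levels were 0.978 to 1.04 CPM per kb at day 3 and 1.03 to 1.26 at day 7 for dendritic cells, with none of 5 tested genes passing and none of 8 listed at 0 in all P10 libraries, and 0.51 to 0.64 for B cells, with none of 5 passing. Their part in the rise was not tested.

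Genes of resident cardiac macrophages gave calls in part. Of 15 listed, 14 were tested and 5 rose, in 3 separate stretches, against 3.11% of all windows, with none falling and a median of 0.39, 0.23 in sham and 0.61 in the number 2 pools. The median was 1.06 in the BZ, 0.22 in the IZ and 0.13 in the RZ. On all pairs the 15 genes were tested and 0 passed in limma, with a median of 0.38 and 0.36 in sham. Cbr2, a carbonyl reductase, had 68.6, 20.5, 30.1, 68.3, 92.5 and 106 CPM at day 3 and 151, 70.3, 158, 94.1, 159 and 169 at day 7 (1.11 ± 0.26, adjusted p = 0.00379). Mgl2, a galactose lectin of alternatively activated macrophages, had 56.2, 34.2, 3.76, 39.5, 63 and 67.2 CPM and then 64.7, 77, 75, 100, 105 and 115 (1.14 ± 0.28, adjusted p = 0.00715). For both genes the IZ and BZ of day 3 were lowest. The RZ of day 3 reached into the day 7 range of the other zones but stayed below the RZ of day 7. Cbr2 was at 0.83 and Mgl2 at 1.83 in the number 2 pools.

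C1qa, C1qb and C1qc, the neighbouring genes of complement C1q, share their regions and rose by 0.72 ± 0.21 (adjusted p = 0.026), from 134 ± 68.2 to 201 ± 36.8 CPM, with C1qa at 0.61 in the number 2 pools. Lyve1 (0.17), Folr2 (0.34), Cd163 (0.49), Mrc1 (0.38) and Cx3cr1 (-0.08) did not pass. Without day 3 RZ replicate 2 Cbr2 (adjusted p = 0.0824), Mgl2 (0.0856) and C1qa (0.27) missed the threshold, as did Cbr2 without day 7 IZ replicate 1 (0.0562) and C1qa without 5 further libraries.

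**Figure D5:**
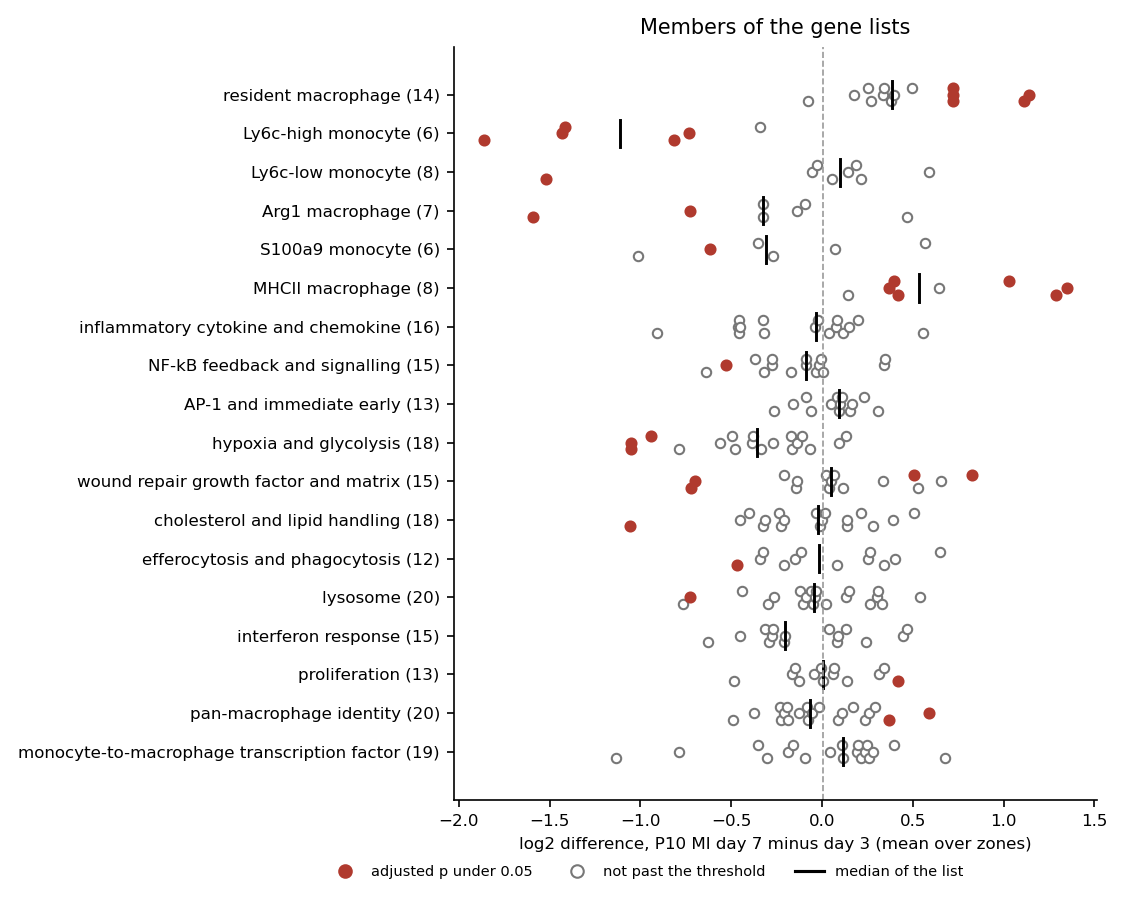
Log2 difference of day 7 over day 3 in P10 MI for each tested member of 18 gene lists, with the number tested in brackets, red where the adjusted p is under 0.05, the list median as a black bar and the median of all windows dashed. The Ly6c-high monocyte list lies lowest (median -1.11) and the MHC class II list highest (0.53), while the cytokine (-0.03) and AP-1 (0.09) lists lie around 0.

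Of 15 repair genes tested, 2 rose and 2 fell (median 0.05), against 3.11% and 3.36% of all windows. On all pairs none of 19 repair genes passed. Pdgfb, a growth factor for stromal cells, rose from 89.7 ± 40.3 to 154 ± 17.8 CPM (0.83 ± 0.22, adjusted p = 0.0127), and Timp2, an inhibitor of metalloproteases, from 117 ± 22.3 to 174 ± 7.79 CPM with no overlap (0.51 ± 0.15, adjusted p = 0.0335). Tgm2, a transglutaminase that crosslinks matrix, fell by 0.72 ± 0.21 (adjusted p = 0.0302, -0.72 also in sham), and Plaur, the urokinase receptor, by 0.70 ± 0.21 (adjusted p = 0.0327, -0.10 in sham). Without day 3 RZ replicate 2 none of these kept its call, with adjusted p of 0.129 for Pdgfb, 0.109 for Timp2, 0.158 for Tgm2 and 0.265 for Plaur. With the replicate block Pdgfb (0.077), Timp2 (0.104) and Plaur (0.0508) missed it as well. In the number 2 pools the differences were 0.70 for Pdgfb, 0.50 for Timp2, -0.74 for Tgm2 and -0.73 for Plaur. The other lists with calls gave 1 or 2 each, where 6.47% of all windows were called. Scd2, a desaturase, fell by 1.06 among 18 genes of cholesterol and lipid handling, Elmo1 by 0.47 among 12 of efferocytosis and Ctsd, cathepsin D, by 0.73 among 20 of the lysosome. Aurkb, a mitotic kinase, rose by 0.42 among 13 of proliferation. Of 20 pan-macrophage genes Cebpa (0.59) and Cd68 (0.37) rose, and Cd68 turned to -0.17 (adjusted p = 0.755) when only the gene and 5 kb before it were counted. Without 1 library the calls were lost for 3 of the 12 libraries in Scd2, 7 in Elmo1, 5 in Cebpa and 7 in Cd68, and for 1, day 3 RZ replicate 2, in Ctsd (adjusted p = 0.194) and Aurkb (0.0778). With the replicate block Elmo1 had an adjusted p of 0.612 and Cebpa of 0.0811. None of 19 tested transcription factors of macrophage differentiation passed, with Bhlhe40 at -1.13 (adjusted p = 0.0669) and Klf4 at 0.68 (adjusted p = 0.234). Of the markers of T cells, B cells, NK cells, dendritic cells, mast cells, cardiomyocytes, fibroblasts and endothelium, 22 windows were tested and 1 passed, Flt1 of endothelium (-1.06 ± 0.31, adjusted p = 0.0298).

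The C-type lectin receptors Clec4d and Clec4e (Mincle), which sense damaged cells and microbes, lie in the window named for Vmn2r19, which fell by 1.46 on the log2 scale. The windows of Clec4e (-1.30, adjusted p = 0.000397) and Clec4d (-1.05) were chosen after their values were seen. The window named for Pcp2 (-1.40) covers the Mcemp1 and Retn region described above. In such windows the gene that gives the name need not be the one the marked DNA serves. Of the 56 named windows that were called, 23 kept their call without any 1 library, 33 lost it without day 3 RZ replicate 2, and 3 (Rin3, Cmip and Pilra) kept it when any 1 of the 4 pools was left out. With the replicate block 44 of the 56 were called, on all pairs 19, with scaling to all deposited pairs 1 and in the number 2 pools alone none.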

How the data were processed

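H3K27ac CoBATCH libraries of sorted cardiac macrophages and monocytes were deposited as lists of aligned reads. Per the study's methods, the authors trimmed reads with Cutadapt, aligned them to mm10 with Bowtie2, filtered mapping quality (Samtools) and PCR duplicates (Picard), and selected cells on their number of reads. The study's peaks (MACS2 2.2.7.1) were not used here. The only value column of the deposited files is the mapping quality score, and no cell is named. Here mates were joined by read name, repeated lines were dropped (libraries numbered 2 only, up to 21.9% of lines in P10 MI), and a pair counted as 1 at its midpoint. In those libraries 12% to 18.4% of counted pairs were reads without a mate. PCR copies cannot be told from separate molecules, so counts are not all independent.

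Regions were 500 bp bins at 4 or more times the mean, merged within 1000 bp, called over all 24 groups with equal weight. Windows followed GENCODE M21 (50 kb before, 30 kb behind). Windows averaging 10 or more pairs and regions averaging 3 or more were fitted with limma 3.58.1 (voom, moderated two-sided test) in R 4.3.3, over 42 libraries and 24 group means. TMM factors came from own code (0.927 to 1.04 in P10), and pool, taken from the shared replicate number, was a random block (correlation 0.107 for windows, 0.0565 for regions). Adjustment was Benjamini-Hochberg with a threshold of 0.05. The fit was tested on simulated data, which held no difference tied to flow cell or fragment length. Counting, tables and figures used Python 3.11.15, numpy 2.4.6, pandas 2.3.3 and matplotlib 3.10.9.

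MI and sham came from sample titles, as the labels call every treatment myocardial infarction. The members and lists were chosen with earlier results of these data known. Named were up to 12 windows and 6 regions per direction with the smallest p, equal sign in the 3 zones and not overlapping another named window, up to 4 members of each list by p, and 20 genes from the study's text. Counting split mates once, and the number 1 and 3 pools alone, were alternatives chosen after seeing the data. The 6 embryonic and adult samples were not analysed here, and 1 listed gene counted among the tested members is not reported here by name.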

Additional observations from a re-analysis of the deposited data

Results flagged for a closer look

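Of 272 groups of 6 libraries, each a day of a named window or region in P10 MI, 21 held a library whose gap to the nearest other passed Dixon's 95% critical value for 6 values. Chance flags about 1 in 20 groups. Values are CPM, with the range of the other 5 libraries of that day in brackets.

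Day 7 IZ replicate 2 stood apart most often. It was high for Rin3 at 408.4 (205.9 to 280.2), Sgms2 at 80.33 (27.07 to 43.14), B430306N03Rik at 80.33 (28.67 to 40.03), Trem2 at 66.94 (23.46 to 33.65) and at 55.69 on all pairs (25.67 to 36.73), and Il1rn, the interleukin-1 receptor antagonist, at 56.9 (5.883 to 21.55). It was low for the cyclin gene Ccnd1 at 40.17 (89.3 to 109.8) and for Il1b on all pairs at 50.12 (72.39 to 84.52). For Rin3, Sgms2, B430306N03Rik and Trem2, whose windows fell, it lay on the side of day 3.

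Day 7 BZ replicate 2 was low for Runx3 at 135.3 (180.8 to 204) and for the gelatinase gene Mmp9 at 52.95 (80.06 to 93.72). It was high for Trim30a at 68.64 (28.63 to 39.09), for Igf1 on all pairs at 80.84 (42.52 to 53.97) and in the region at Sgms2 at 51.21 (27.11 to 31.64).

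At day 3, BZ replicate 2 was low for Il18r1 at 3.762 (17.43 to 24.96) and high for Abcg1 at 131.7 (86.4 to 100.2) and Ccr2 at 297.2 (211.8 to 230.9). IZ replicate 3 was low for Trim47 at 184.4 (251.7 to 265.6) and high for Arg1 on all pairs at 68.4 (39.27 to 48.1). RZ replicate 3, the shallowest of the 12 libraries with 137158 pairs, was high for Jund at 280.2 (187.2 to 207.2) and for H2-Ab1 on all pairs at 43.68 (31.05 to 35.05). RZ replicate 2 was high for Timp2 at 159.6 (97.81 to 120.5).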

How the results depend on the processing

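The 656 called windows became 1 with scaling to all deposited pairs, 132 with limma-trend, 1 in the number 2 pools, 93 in the number 1 and 3 pools (chosen after seeing the data), 1043 in a fit of the 12 MI libraries, 72 on all pairs and 199 with the gene and 5 kb before it. They became 194 and 128 without the day 3 pools numbered 2 and 3, and 8 and 369 without the day 7 pools numbered 1 and 2. Without 1 library they ranged from 93 (without day 3 RZ replicate 2) to 988 (without day 3 IZ replicate 2), with 268 without day 3 IZ replicate 3 and 288, 395, 258 and 212 without day 7 IZ 1, IZ 2, BZ 1 and RZ 1. The days share replicate number 2 only, so whether equal numbers pair samples could not be checked. With the replicate block, windows fell to 314, regions to 55 and BZ windows to 252. The 222 called regions became 26 with deposited scaling, 26 with limma-trend, 111 with no filter, 371 with no pool block, 593 in the 12 libraries, 1 in the number 2 pools, 9 in the number 1 and 3 pools, 30 with regions at 8 times the mean, 104 and 18 without the day 3 pools numbered 2 and 3, 2 and 52 without the day 7 pools numbered 1 and 2, and 30 to 448 without 1 library. The 394 BZ windows became 58 with deposited scaling, 71 with limma-trend, 135 on all pairs and 29 to 233 without 1 library. IZ windows ranged from 0 to 76, RZ windows from 0 to 11 and MI less sham from 0 to 2 without 1 library, and sham windows became 13 with no pool block. The causes were not tested. Of the 56 named called windows 55 kept their direction in every setting, and the window of Cd68 turned to -0.1746 (adjusted p = 0.7549) with the gene and 5 kb before it. The 12 named regions kept their direction in all 348 settings, of which 54 missed the threshold. Without RZ replicate 3 of day 3, the shallowest library with 137158 pairs, 569 windows were called.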

Other observations

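Gas6, a bridging ligand by which phagocytes recognise dying cells, passed in the BZ (3.00, adjusted p = 0.00149), with 0.65 over the zones (adjusted p = 0.355). The difference of the BZ from the other zones is not given here. Il18r1 stood at 1.83 in the number 2 pools and at -0.30 in the number 1 and 3 pools, so its 0.57 over all pools (adjusted p = 0.405) joins opposite values. Shares of pairs in regions that lay at promoters were 57.8% to 60.4% in the day 7 libraries and 55.5% to 58.4% in the day 3 libraries of P10 MI, with 57% to 61% and 57.9% to 59.4% in sham.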
